A study of Mus musculus with 9 samples.

Results

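The transcripts of 10 chemokine ligands were followed in microglia, the brain's own macrophages, sorted from the visual cortices of 9 mice. The ligands were Ccl2, Ccl3, Ccl4, Ccl5, Ccl6, Ccl7, Ccl9, Ccl12, Cxcl10 and Cxcl16, taken by symbol from the 45664 symbols of the deposited count table. The rule used the symbols alone. After the filter on low counts 9 of the 10 were among the 13067 genes tested, and Ccl5 was too low to be tested.

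The study asked whether ethanol given in the first days of life alters microglia in adolescence. All animals were male C57BL/6 mice from 3 litters, injected subcutaneously on postnatal days 4 to 9 with 2 injections a day. The saline group of 5 mice received 0.9% NaCl, and the mice numbered 1 to 5 were 36, 30, 35, 29 and 30 days old at collection. The ethanol group of 4 mice received 1.8 g/kg per injection as a 20% v/v solution in saline, 2 h apart, for 3.6 g/kg per day, and mice 1 to 4 were 35, 35, 30 and 30 days old. Live CD11b+ CD45 low cells of 1 mouse made up each library, and differences between mice cannot be told apart from those of sorting and library preparation. Which mouse came from which litter is not known from the labels.

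Chemokines are small secreted proteins that bind G protein-coupled receptors on leukocytes and steer their movement along a gradient. Most belong to the CC or the CXC family, named for the spacing of the first cysteines. Microglia are a known source of chemokines in the brain, where CCL2 and its relatives draw in CCR2-bearing monocytes, CCL3, CCL4 and CCL5 attract macrophages and T cells, CXCL10 acts on CXCR3 of lymphocytes, and CXCL16 is made as a membrane-bound ligand of CXCR6 that ADAM10 can release.

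Of the 10 genes, 8 lie in a pair of clusters on chromosome 11 of the mouse build GRCm38. Ccl2, Ccl7 and Ccl12 lie within 67.8 kb (chr11:82035571-82103400, all on the plus strand), and Ccl5, Ccl9, Ccl6, Ccl3 and Ccl4 within 138.9 kb (chr11:83525778-83664683), 1422 kb further on. In the second cluster Ccl3 and Ccl4 are read from opposite strands and stand 13.2 kb apart, and Ccl9 and Ccl6 are both on the minus strand, 9.25 kb apart. Cxcl16 lies elsewhere on the same chromosome (chr11:70453983-70459984) and Cxcl10 on chromosome 5 (chr5:92346638-92348889), both on the minus strand. All 10 are annotated as protein-coding, and counts are for whole genes.

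Promoters of 5 of the 10 ligands (Ccl3, Ccl6, Ccl9, Ccl12 and Cxcl10) were in the RefSeq promoter table for GRCm38.p6, each running from 250 bases before to 50 bases after the start site. The 3 printed here belong to the ligand that varied most between mice (Cxcl10), to one that varied together with 2 others (Ccl3), and to the steadiest (Ccl9). They lie on the minus strand at chr5:92348840-92349139, chr11:83649329-83649628 and chr11:83578587-83578886. Capitals mark matches, on either strand, to 4 motifs: the NF-kB motif (GGG and CC with any 5 bases between them), the interferon-stimulated response element (GAAA repeated after any 2 bases), the AP-1 motif TGANTCA, and the TATA motif TATAAA.
Cxcl10: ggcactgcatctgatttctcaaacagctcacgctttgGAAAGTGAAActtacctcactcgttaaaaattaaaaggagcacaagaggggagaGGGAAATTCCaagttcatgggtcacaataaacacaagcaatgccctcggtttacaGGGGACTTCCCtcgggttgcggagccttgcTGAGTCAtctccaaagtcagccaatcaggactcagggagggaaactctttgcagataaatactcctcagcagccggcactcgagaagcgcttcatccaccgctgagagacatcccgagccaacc
Ccl3: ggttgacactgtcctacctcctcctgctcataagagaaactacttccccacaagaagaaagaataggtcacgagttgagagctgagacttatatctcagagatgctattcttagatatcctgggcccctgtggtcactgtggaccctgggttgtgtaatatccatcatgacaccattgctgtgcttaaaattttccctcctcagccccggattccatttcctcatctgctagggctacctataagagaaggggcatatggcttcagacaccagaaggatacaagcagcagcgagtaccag
Ccl9: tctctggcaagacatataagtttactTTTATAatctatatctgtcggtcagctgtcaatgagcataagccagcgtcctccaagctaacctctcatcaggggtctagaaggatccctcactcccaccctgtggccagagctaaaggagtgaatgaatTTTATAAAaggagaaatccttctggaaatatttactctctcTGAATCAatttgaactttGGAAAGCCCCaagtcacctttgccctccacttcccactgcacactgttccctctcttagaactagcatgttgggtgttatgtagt
In the Cxcl10 promoter the interferon element spanned bases -213 to -204 from the start site, NF-kB matches lay at -159 to -150 and, overlapping each other, at -104 to -95 and -103 to -94, and the AP-1 match lay at -74 to -68. Ccl9 held an NF-kB match at -35 to -26 on the opposite strand, an AP-1 match at -53 to -47, and TATA matches of which a pair overlapped at -94 to -89 and -92 to -87. In Ccl3 none of the 4 motifs was found within this window. The NF-kB letters were present in 50.8% of all 32851 promoters of this length and the AP-1 letters in 7.81%, and each was present in 2 of the 5 ligands' promoters (Ccl9 and Cxcl10). The interferon element was present in 3.44% of all promoters and in 1 of the 5 (Cxcl10), and TATAAA in 13.6% and in 2 of the 5 (Ccl9 and Ccl12).

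The libraries held 12816198 to 28859244 counts. Expression is given as CPM, counts put on 1 common library size after TMM scaling. Summed CPM of 15 microglial markers lay between 68254 and 80545, with Csf1r, the receptor that microglia need to survive, at a mean of 19291. Markers of monocytes and neutrophils summed to 4.69 to 8.10 CPM in saline mice and 4.84 to 16.0 in ethanol mice, with S100a8, S100a9, Lcn2 and Retnlg at 0 counts throughout and 10 of the 12 under 1 CPM in every library. Lymphocyte markers summed to 45.5 to 53.6 and 47.0 to 69.3 CPM, nearly all of it Cd79b, while 14 of the 16 stayed under 1 CPM and Cd3e, Cd3g, Nkg7, Gzma and Ncr1 were at 0. Border macrophage markers summed to 1020 to 1227 and 393 to 1089 CPM (exact two-sided permutation p = 0.0714, adjusted p = 0.333 over 7 lists of other cells), mostly Stab1. Adjusted over the same lists, the exact permutation p was 0.422 for astrocytes, 0.422 for oligodendrocytes, 0.722 for neurons and 0.333 for endothelial cells and pericytes. Sums weigh the highest genes most. Gene by gene, all tested markers of astrocytes (11, median log2 change for ethanol 0.66), neurons (8, 0.38) and oligodendrocytes (6, 0.14) were above 0. All of border macrophages (5, -0.86) and of endothelial cells and pericytes (4, -0.20) were below 0. Of all genes 49.8% were above 0. None of these markers passed an adjusted p of 0.05 by edgeR's quasi-likelihood test. A pair of libraries stood apart: saline 1 held 3.64 CPM of summed neuron markers against 82.8 to 312 in the other 8, and ethanol 2 had the lowest border macrophage sum, 393 CPM against 1002 or more elsewhere. That gap lay in Stab1, at 354 CPM in ethanol 2 and 953 to 1178 elsewhere. Mrc1, another marker of the list, was at 37.1 CPM in ethanol 2, 39.8 in ethanol 1, 39.4 in ethanol 4 and 45.1 to 89.1 in the rest. The gate on CD11b with low CD45 is meant to leave out lymphocytes and most monocytes.

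Together the 10 ligands made up 470 CPM (saline 5) to 609 CPM (ethanol 2), and Ccl6 and Ccl9 supplied 65.5 to 77.3% of that sum. Levels of different genes were compared as CPM per kilobase of exon. On that scale the order was Ccl6 (94.5 ± 10.02, SD, n = 9), Ccl9 (73.1 ± 6.07), Ccl12 (61.4 ± 18.9), Ccl4 (43.1 ± 17.1), Ccl3 (27.6 ± 13.6), Cxcl16 (18.7 ± 2.22), Ccl2 (4.31 ± 1.85), Ccl7 (1.01 ± 0.447), Cxcl10 (0.928 ± 0.746) and Ccl5 (0.294 ± 0.236). Of the 12411 tested genes with a length, 97.3% lay below Ccl6 and 96.4% below Ccl9, against 45.1% below Ccl2 and 19.9% below Cxcl10. Between neighbours in the order the ranges over the 9 libraries were separate at 2 steps, Cxcl16 above Ccl2 and Ccl2 above Ccl7. At the other steps they overlapped, although Ccl6 was above Ccl9, and Ccl4 above Ccl3, in 9 of 9 libraries. The weakest steps were Ccl7 above Cxcl10 (6 of 9 libraries), Ccl9 above Ccl12 (7 of 9) and Ccl3 above Cxcl16 (7 of 9).

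**Figure D1:**
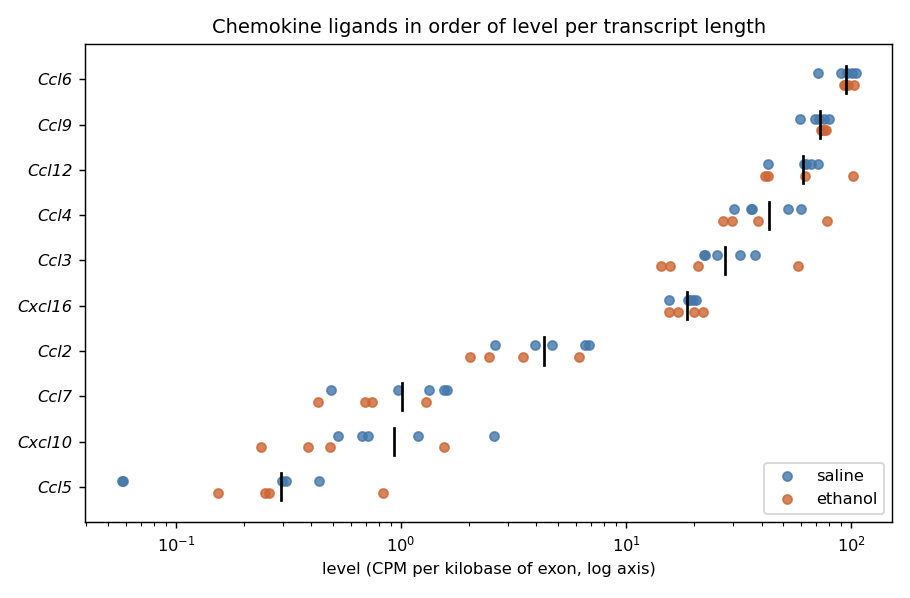
Level of each ligand in CPM per kilobase of exon (log axis), with each point a library, saline and ethanol drawn in separate rows, and the black line the mean of 9. Ccl6 and Ccl9 sat highest at means of 94.5 and 73.1, and Ccl2 fell clear of both Cxcl16 above it and Ccl7 below it.

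No ligand passed the test for ethanol. By edgeR's quasi-likelihood test with Benjamini-Hochberg adjustment over the 13067 genes, 0 of the 9 tested ligands passed an adjusted p of 0.05, as did 0.0% of all genes. At an unadjusted p under 0.05 the count was 0 of 9, against 2.95% of all genes (386). By other tools run on the same genes no gene passed either: DESeq2 called 0 (435 at an unadjusted p under 0.05) and limma-voom called 0 (493). The fold change was above 0 for 4 ligands and below 0 for 5 (all genes 49.8% above and 50.2% below), with a median log2 change of -0.01 for the ligands and -0.0007 for all genes. For none of the 10 did the ethanol and saline ranges separate, which 1.29% of all tested genes did. In bulk samples, fewer cells making a transcript and less of it per cell cannot be told apart, and this holds for every level below.

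The precision differed widely between ligands. The 95% interval of the ethanol change lay within 1.5-fold either way for Ccl6, Ccl9 and Cxcl16 (3 of 9 ligands, against 59.4% of all genes) and within 2-fold for these and Ccl3, Ccl4 and Ccl12 (6 of 9, against 79.1%). For Ccl2, Ccl7 and Cxcl10 the intervals reached past 2-fold on the lower side.

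**Figure D2:**
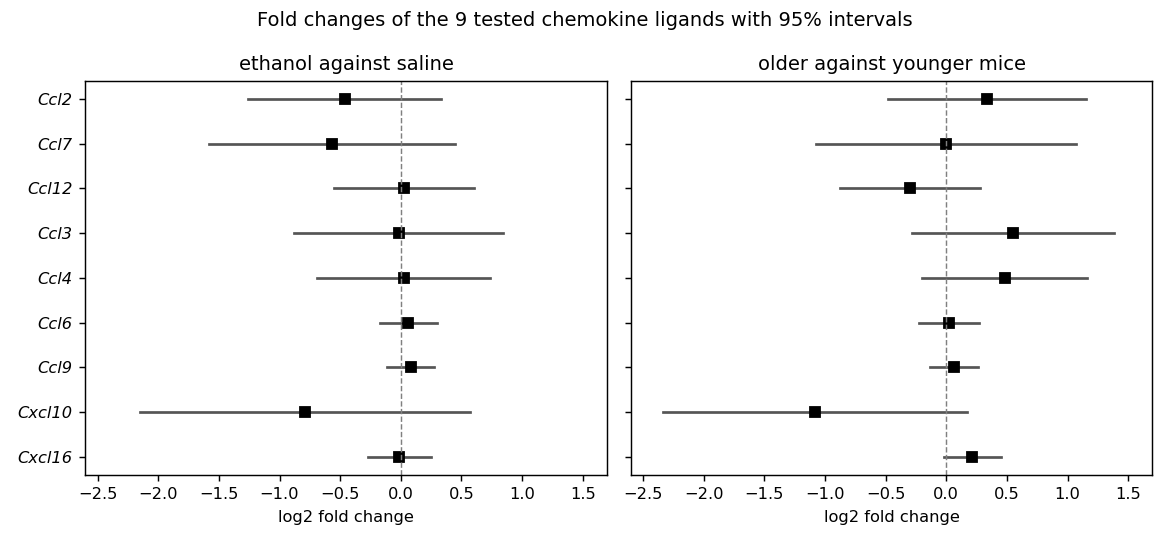
Log2 fold change of the 9 tested ligands for ethanol against saline (left) and for older against younger mice (right), with 95% intervals from edgeR's quasi-likelihood fit as lines. Every interval includes 0, and those of Ccl6, Ccl9 and Cxcl16 are the narrowest in both panels.

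Ccl2, Ccl7 and Ccl12 encode ligands of CCR2 that attract monocytes. Ccl2 stood at 7.79, 5.31, 4.47, 2.99 and 7.49 CPM in saline mice 1 to 5, and at 2.30, 7.01, 2.81 and 3.95 CPM in ethanol mice 1 to 4. Saline 1, saline 5 and ethanol 2 were high, 3 of the 4 ethanol mice were below the saline median, and the groups overlapped. The means were 5.61 ± 2.04 CPM (SD, n = 5) and 4.02 ± 2.11 CPM (SD, n = 4). The log2 change was -0.46 ± 0.36 (SE, 95% interval -1.26 to 0.33, adjusted p = 0.963 by edgeR's quasi-likelihood test), a difference within the spread between mice. It ran from -0.88 without ethanol 2 (unadjusted p = 0.0183, adjusted p = 0.9997) to -0.27 without ethanol 1 when single mice were left out.

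Ccl7 was near the limit of counting, with 6 to 36 counts a library. Its levels were 1.07, 1.24, 0.393, 0.775 and 1.28 CPM in saline mice and 0.556, 1.04, 0.344 and 0.593 CPM in ethanol mice. All 4 ethanol mice lay below the saline median, but saline 3 was as low as the lower ethanol mice and the ranges overlapped. The log2 change was -0.57 ± 0.46 (SE, 95% interval -1.58 to 0.45, adjusted p = 0.963 by edgeR's quasi-likelihood test). It was -0.94 without ethanol 2, -0.37 without ethanol 3 and -0.90 without saline 1 and ethanol 2. Counting error alone gives a coefficient of variation (CV) of 25.4% at this depth, beside the 44.3% observed over the 9 mice.

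Ccl12, which mice carry beside Ccl2 as a second monocyte attractant, was the most abundant of the 3 per length. Its levels were 38.2, 33.9, 23.0, 33.1 and 35.5 CPM in saline mice and 22.2, 33.4, 54.7 and 22.9 CPM in ethanol mice. Ethanol 3 was above every saline mouse, ethanol 1 and ethanol 4 were below every saline mouse, and the means of 32.8 ± 5.78 (SD, n = 5) and 33.3 ± 15.2 CPM (SD, n = 4) nearly coincided. The log2 change was 0.03 ± 0.26 (SE, 95% interval -0.55 to 0.60, adjusted p = 0.993 by edgeR's quasi-likelihood test), and without ethanol 3 it was -0.32 (adjusted p = 0.928). Ethanol 3 also held the highest sum of monocyte and neutrophil markers, 16.0 CPM. Ccr2 itself, the receptor of these ligands and the marker of the monocytes they attract, made up 15.8 CPM of it, against 3.51 to 6.73 in the other libraries. The high sum thus rested on this 1 gene, and only 1 of the 2 tested markers of the list was above its own mean in ethanol 3. The part of monocytes in the Ccl12 level was not tested.

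Ccl3 and Ccl4 encode the macrophage inflammatory proteins 1 alpha and 1 beta, which activated macrophages and microglia release. Ccl3 stood at 28.6, 19.3, 17.2, 16.9 and 24.5 CPM in saline mice and at 10.96, 44.4, 11.98 and 15.96 CPM in ethanol mice. Ethanol 2 was the highest of all mice and the other 3 ethanol mice were the lowest of all, so that the ethanol range enclosed the saline range. The means were 21.3 ± 5.10 CPM (SD, n = 5) and 20.8 ± 15.9 CPM (SD, n = 4), with a log2 change of -0.02 ± 0.39 (SE, 95% interval -0.88 to 0.84, adjusted p = 0.996 by edgeR's quasi-likelihood test).

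Ccl4 stood at 39.6, 23.9, 23.7, 20.0 and 34.5 CPM in saline mice and at 19.5, 51.7, 17.8 and 25.5 CPM in ethanol mice. Ethanol 2 was again the highest mouse, ethanol 1 and ethanol 3 were the lowest, and ethanol 4 lay inside the saline range. On the log2 scale the ethanol change was 0.02 ± 0.32 (SE, 95% interval -0.69 to 0.74, adjusted p = 0.994 by edgeR's quasi-likelihood test). Both values depended on 1 mouse. Without ethanol 2 the log2 change was -0.71 for Ccl3 and -0.44 for Ccl4, each with an adjusted p of 0.9997 and an unadjusted p of 0.00347 and 0.0801. Without ethanol 2 and saline 1, a setting chosen after the data were seen, Ccl2, Ccl3 and Ccl4 stood at -0.74, -0.58 and -0.28, with an adjusted p of 0.9997 each and an unadjusted p of 0.0402, 0.00454 and 0.149. Ethanol 2 was also the mouse with the lowest sum of border macrophage markers (393 CPM, through its low Stab1). Its sum of lymphocyte markers was the highest (69.3 CPM, nearly all Cd79b). The part of such cells in its Ccl3 and Ccl4 levels was not tested.

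Ccl5, a T cell attractant that shares CCR1 with Ccl3, was close to absent. It had 1, 12, 6, 1 and 6 counts in saline mice and 3, 6, 14 and 3 in ethanol mice, or 0.0553 to 0.414 and 0.148 to 0.802 CPM. The highest count, 14 in ethanol 3, has a 95% Poisson interval of 7.65 to 23.5 and the count of 1 in saline 1 has one of 0.0253 to 5.57, which cover counting error only. Counting error alone gives a CV of 43.0% at this depth, beside the 80.3% observed. The summed lymphocyte markers of ethanol 3, 57.8 CPM, were second to those of ethanol 2, 69.3 CPM, and 57.1 CPM of them was Cd79b. The T cell gene Trbc2 had 0 counts in ethanol 3 and at most 2 in any library, too few to tell libraries apart. The part of lymphocytes in the Ccl5 counts was not tested.

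**Figure D3:**
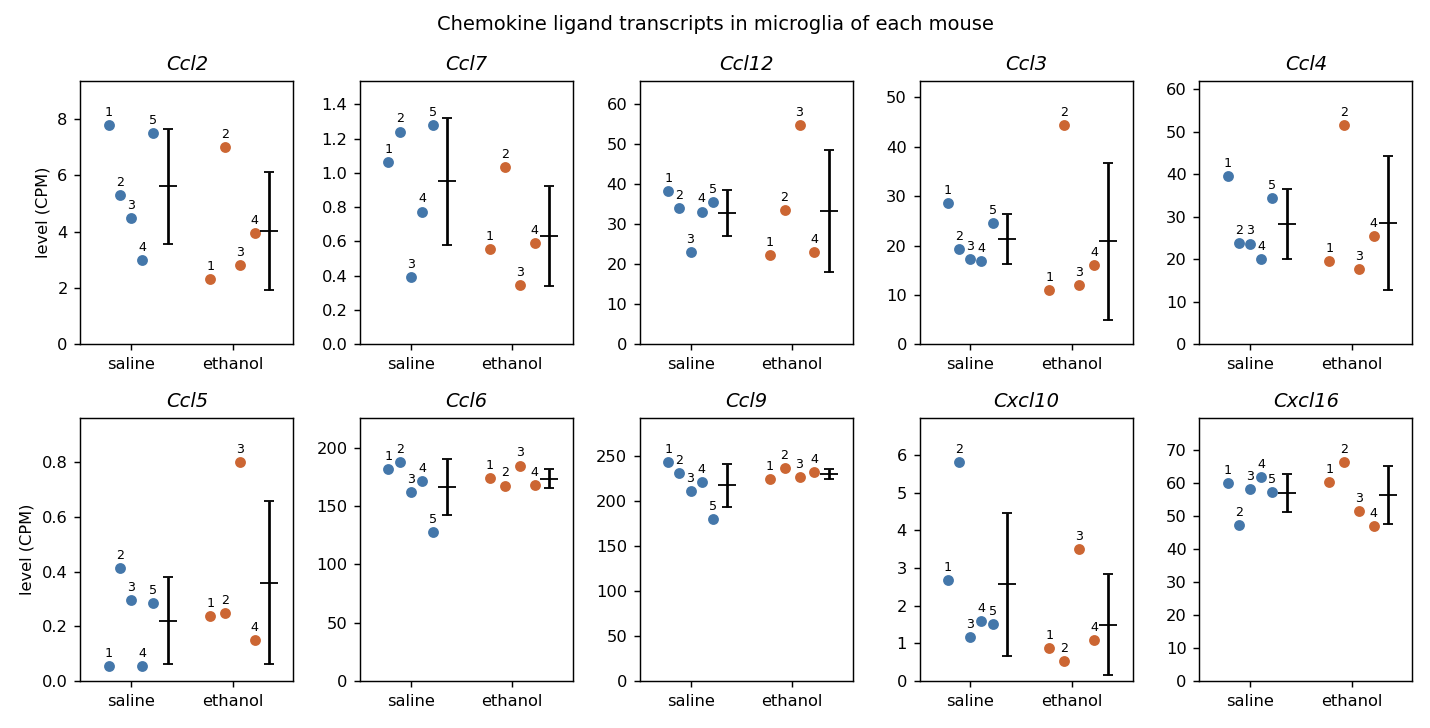
CPM of each ligand in every mouse, saline in blue and ethanol in orange, with the mouse number at each point and the group mean ± SD as a black bar (n = 5 and 4). The groups overlap in all 10 panels, and ethanol 2 stands alone at 44.4 CPM for Ccl3 and 51.7 CPM for Ccl4.

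Ccl6 and Ccl9 encode CC ligands of CCR1 found in rodents and made by macrophages. Ccl6 stood at 182, 188, 162, 172 and 128 CPM in saline mice and at 174, 168, 185 and 168 CPM in ethanol mice. Only saline 5 departed from the rest, on the low side, and every ethanol mouse lay within the saline range. Ethanol and saline mice differed by 0.06 ± 0.11 on the log2 scale (SE, 95% interval -0.17 to 0.30, adjusted p = 0.966 by edgeR's quasi-likelihood test), so that the interval ran from 0.888 to 1.23 times the saline level.

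Ccl9 stood at 243, 230, 211, 220 and 180 CPM in saline mice and at 224, 237, 226 and 231 CPM in ethanol mice. Saline 5 was again the lowest, and the 4 ethanol mice lay close together inside the saline range. For Ccl9 the log2 change was 0.08 ± 0.09 (SE, 95% interval -0.11 to 0.27, adjusted p = 0.963 by edgeR's quasi-likelihood test), or 0.926 to 1.21 times the saline level. Ccl9 had the smallest CV of the 10 over all mice, 8.30%, and Ccl6 the next, 10.6%. In the sense direction 1.97% of the 50-base stretches of Ccl9 exons also occur in other genes' exons, against 0 for the other 9 ligands. Reads from those stretches could not be placed with certainty. Overlaps with genes on the opposite strand were not part of this search.

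Cxcl10 encodes an interferon-induced attractant of CXCR3-bearing T cells and varied more than any other tested ligand. Its levels were 2.69, 5.83, 1.18, 1.604 and 1.52 CPM in saline mice and 0.873, 0.539, 3.50 and 1.09 CPM in ethanol mice. Saline 2 was highest and ethanol 3 second, 3 of the 4 ethanol mice were below every saline mouse, and the groups overlapped through ethanol 3. Over the 9 mice the CV was 80.4%, against 15.8% from counting error, and the highest mouse was 10.8 times the lowest. The means were 2.56 ± 1.91 CPM (SD, n = 5) and 1.50 ± 1.35 CPM (SD, n = 4), with a log2 change of -0.79 ± 0.62 (SE, 95% interval -2.15 to 0.57, adjusted p = 0.963 by edgeR's quasi-likelihood test). Leaving out each library in turn gave log2 changes between -1.64 (without ethanol 3) and -0.22 (without saline 2), all below 0, and without saline 1 and ethanol 2 it was -0.49. The exons of Art3 on the other strand overlap those of Cxcl10 by 133 bases and Art3 stood at 0.148 to 0.860 CPM. Use of strand in counting is not stated, so how reads from the shared bases were counted is not known.

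Cxcl16 encodes the membrane-anchored ligand of CXCR6, which is also a scavenger receptor. It stood at 59.8, 47.1, 58.0, 61.9 and 57.2 CPM in saline mice and at 60.3, 66.4, 51.3 and 47.0 CPM in ethanol mice. Ethanol 2 was highest, ethanol 4 and saline 2 were lowest, and the groups overlapped over most of their range. The log2 change was -0.01 ± 0.12 (SE, 95% interval -0.27 to 0.25, adjusted p = 0.992 by edgeR's quasi-likelihood test), or 0.828 to 1.19 times the saline level. Its exons share 552 bases with Zmynd15 on the other strand, which stood at 3.73 to 10.5 CPM.

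Ccl2, Ccl3 and Ccl4 varied together from mouse to mouse. Among the 45 pairs of the 10 ligands, 3 passed Benjamini-Hochberg adjustment of exact permutation p-values, and they were the 3 pairs among these genes. Over the 9 libraries, on log2(CPM + 1), Ccl3 and Ccl4 had Pearson's r of 0.957 (exact permutation p = 0.000182, adjusted p = 0.00819) and Spearman's rho of 0.883 (exact permutation p = 0.00307, adjusted p = 0.0461). Ccl2 and Ccl3 had r = 0.879 (exact permutation p = 0.00107, adjusted p = 0.0200) and rho = 0.933 (exact permutation p = 0.000750, adjusted p = 0.0337). Ccl2 and Ccl4 had r = 0.886 (exact permutation p = 0.00133, adjusted p = 0.0200) and rho = 0.883 (exact permutation p = 0.00307, adjusted p = 0.0461).

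The coefficients were then computed on fewer libraries. Without the 2 libraries farthest from the median of the first gene of the pair, r was 0.858 for Ccl3 and Ccl4 (ethanol 2 and saline 1 left out), 0.825 for Ccl2 and Ccl3 and 0.870 for Ccl2 and Ccl4 (ethanol 1 and saline 1 left out for both). With saline 1 and ethanol 2 left out, the 7 other libraries gave r of 0.858, 0.931 and 0.918 in that order, which did not pass the adjustment over 45 pairs (exact permutation, adjusted p = 0.159, 0.0893 and 0.121). Leaving out single libraries, Ccl3 and Ccl4 passed in 9 of 9 settings, Ccl2 and Ccl3 in 4 and Ccl2 and Ccl4 in 3. Another pair, Cxcl10 and Cxcl16, passed in 1 setting, without ethanol 4, with r = -0.892 (exact permutation, adjusted p = 0.0454), against r = -0.601 (adjusted p = 0.471) over all 9 libraries. Each age cohort holds fewer than 6 mice, so r was not computed within cohorts, and all values come from the same libraries and scaling.

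The genes did not keep a fixed proportion. The ratio of Ccl3 to Ccl4 counts ran from 0.561 in ethanol 1 to 0.860 in ethanol 2, with a median of 0.724. Among the genes of the first cluster, which lie closer to Ccl2, Ccl7 gave r = 0.754 with Ccl2 (exact permutation, adjusted p = 0.239). Ccl12 gave r = 0.195 with Ccl2 (exact permutation, adjusted p = 0.9045). Ccl6 and Ccl9 held a steadier ratio, 0.709 to 0.817 with a CV of 5.44%, but their r of 0.891 (exact permutation, adjusted p = 0.154, rho = 0.467) was 0.495 without saline 2 and saline 5. 

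Immediate early and inflammatory cytokine genes had mixed values in the mice where Ccl2, Ccl3 and Ccl4 were high. In ethanol 2 the 23 tested immediate early genes, which cell dissociation is known to induce, had a median of 0.25 above their own means on log2(CPM + 1), but in saline 1 it was -0.11, in saline 5 -0.06, and in ethanol 1, where Ccl2 and Ccl3 were lowest, 0.27. The 7 tested inflammatory cytokine genes stood at 0.30, 0.25 and 0.01 in saline 1, saline 5 and ethanol 2. A list of 12 genes of message decay and feedback ran the other way, at -0.06, -0.03 and -0.08 in these mice. In the other 6 mice its median was 0.02 to 0.22. A link of these genes to the 3 ligands was not tested. The RNA integrity numbers of saline 1, saline 5 and ethanol 2 were 9.2, 9.8 and 9.2, and those of the other 6 mice ran from 9.0 to 9.9.

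**Figure D4:**
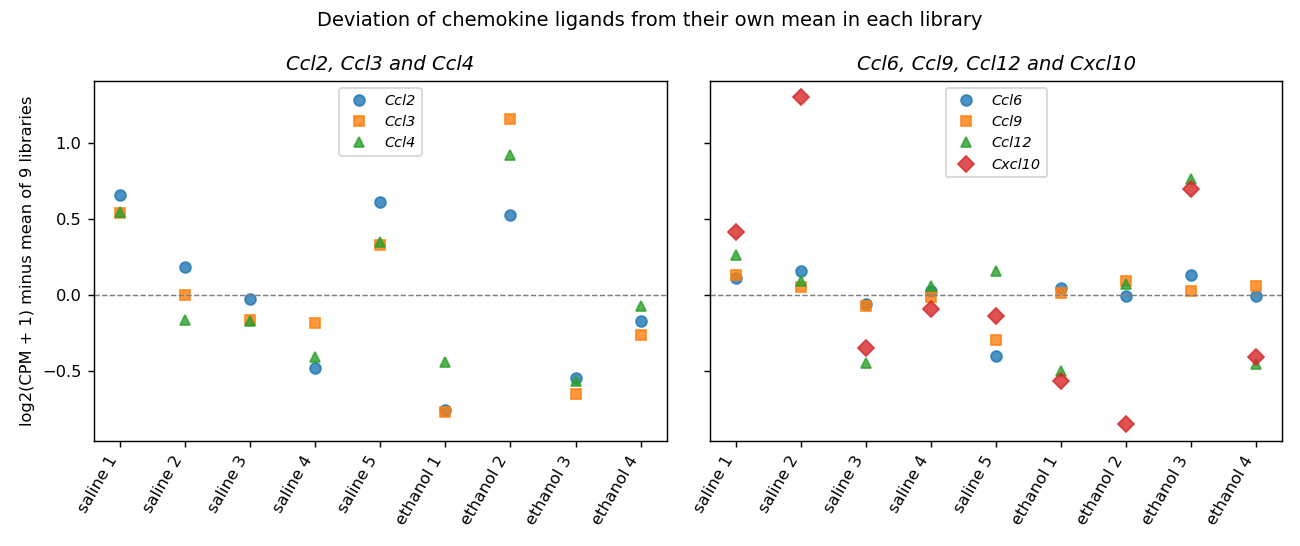
Deviation of log2(CPM + 1) from each gene's own mean in the 9 libraries, for Ccl2, Ccl3 and Ccl4 (left) and for Ccl6, Ccl9, Ccl12 and Cxcl10 (right). The points of Ccl2, Ccl3 and Ccl4 lie together above 0 in saline 1, saline 5 and ethanol 2, while Cxcl10 peaks in saline 2 and, with Ccl12, in ethanol 3.

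The genes whose profile over the 9 libraries was nearest to that of the 3 most variable ligands were found among 9132 tested genes of at least 5 CPM, by the mean absolute difference of centred log2(CPM + 1). Nearest to Ccl3 were Plaur, the urokinase receptor (0.241), the stress-induced factor Atf3 (0.247) and the mitochondrial folate enzyme Mthfd2 (0.251), against a median of 0.475 over all genes compared. Its fellow ligand Ccl4 was nearer than any of them, at 0.140. Nearest to Ccl2 were Slamf1 (0.203), Optn (0.219) and Cep290 (0.247), with Ccl4 at 0.196 and a median of 0.460. Nearest to Cxcl10 were the tetraspanin Cd151 (0.256), the actin-binding Cotl1 (0.274) and Enc1 (0.291), all highest in saline 2 like Cxcl10, against a median of 0.543 and 0.334 for the closest ligand, Ccl12.

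The mice fell into an older cohort (saline 1, saline 3, ethanol 1 and ethanol 2, days 35 and 36) and a younger one (days 29 and 30, 5 mice), both with each treatment. Age nearly coincided with the suffix of the library names, whose meaning is not stated. Nearly all younger mice carried a suffix that no older mouse had. The suffix was not a term in the fits for age or for the interaction of ethanol and age. Differences between cohorts, also in the ethanol change, were therefore not separated from differences that go with the suffix. With ethanol as a covariate, 0 of 9 ligands passed for age by edgeR's quasi-likelihood test, as did 0.0% of all genes, and 0 of 9 had an unadjusted p under 0.05, against 2.85% of all genes (372). By DESeq2 no gene passed either (451 at an unadjusted p under 0.05). Ranges of the cohorts separated for none of the 10 ligands (1.24% of all genes). The fold change was above 0 for 6 ligands and below 0 for 2 (45.2% of all genes above), and 0.00 for Ccl7, with a median of 0.06 against -0.02 for all genes.

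The farthest from 0 was Cxcl10, at a mean of 1.32 ± 0.950 CPM in older mice (SD, n = 4) and 2.71 ± 1.98 in younger ones (SD, n = 5). Its log2 difference was -1.08 ± 0.56 (SE, 95% interval -2.33 to 0.17, adjusted p = 0.973 by edgeR's quasi-likelihood test). Cxcl16 averaged 61.1 ± 3.63 and 52.9 ± 6.51 CPM, with a log2 difference of 0.22 ± 0.11 (SE, 95% interval -0.02 to 0.45, adjusted p = 0.973 by edgeR's quasi-likelihood test). Ccl3 and Ccl4 were higher in older mice on average, by 0.55 ± 0.37 and 0.48 ± 0.30 on the log2 scale (SE), and Ccl2 by 0.34 ± 0.37, each with an adjusted p of 0.973. Saline 1 and ethanol 2 were the highest of the older mice for each of these 3 genes. Without this pair, left out after the data were seen, the log2 differences were -0.29, -0.15 and -0.37. Leaving out the highest older mice lowers such a difference in any case. Ccl12 was lower in older mice by a log2 difference of -0.30 ± 0.26 (SE) in all libraries and -0.68 without that pair. This difference also moved with single mice, to -0.0030 without ethanol 3, -0.16 without ethanol 1 and -0.51 without saline 1.

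Ethanol was then compared within each cohort. Among younger mice (3 saline, 2 ethanol) the log2 change was -0.64 for Ccl2, -0.54 for Ccl3, -0.27 for Ccl4, -1.22 for Ccl7, 0.18 for Ccl12 and -0.41 for Cxcl10. Among older mice (2 of each) it was -0.37, 0.28, 0.18, 0.16, -0.14 and -1.47 in the same order. Among these 6 the sign differed between cohorts for Ccl3, Ccl4, Ccl7 and Ccl12, but the interaction of ethanol and age was called for 0 of 9 ligands by edgeR's quasi-likelihood test, as for 0.0% of all genes, with no ligand at an unadjusted p under 0.05 (3.24% of all genes, 423). It was 0.83 ± 0.73 for Ccl3, 1.39 ± 0.93 for Ccl7 and -1.08 ± 1.15 for Cxcl10 on the log2 scale (SE), each with an adjusted p of 0.972. Single mice moved these terms: Ccl3 was at -0.53 without ethanol 2, Ccl7 ran from 0.84 without ethanol 2 to 2.26 without saline 1, and Cxcl10 from -2.02 without saline 2 to -0.011 without ethanol 3. Without saline 1 and ethanol 2, which leaves 1 older mouse in each treatment, they were -0.10, 1.72 and -0.012, and the term of Ccl4 went from 0.45 to 0.00040, with an adjusted p of 0.9999 each. Ccl6, Ccl9 and Cxcl16 differed from 0 by at most 0.17 on the log2 scale in either cohort. DESeq2 called the interaction for 1 gene, which was no ligand (442 at an unadjusted p under 0.05).

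No receptor of these ligands passed the test either. Of 23 listed chemokine receptors 12 were tested, with 6 above 0 and 6 below for ethanol, a median log2 change of 0.03 and none past the threshold of edgeR's quasi-likelihood test. Ccr1, which binds Ccl3, Ccl5, Ccl6 and Ccl9, stood at 97.6 ± 28.3 CPM in saline mice (SD, n = 5) and 77.1 ± 27.7 in ethanol mice (SD, n = 4). In the same order Ccr2 was at 5.54 ± 1.25 and 7.84 ± 5.37, Cxcr3 at 3.14 ± 0.619 and 3.59 ± 0.264 and Cxcr6 at 0.519 ± 0.444 and 0.411 ± 0.522. The highest of the family, the fractalkine receptor Cx3cr1 that marks microglia, was at 7149 ± 441 and 8154 ± 1214 CPM, a log2 change of 0.19 ± 0.09 (SE, adjusted p = 0.963 by edgeR's quasi-likelihood test). Adam10, which sheds Cxcl16, was at 717 ± 29.4 and 699 ± 44.0 CPM, and the 4 tested shedding and trimming genes of 7 listed divided evenly into 2 above 0 and 2 below.

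Of 28 other chemokine ligands 8 had enough counts to be tested, 5 above 0 and 3 below for ethanol, with a median of 0.04 and none called. Ccl24, an eosinophil attractant and the highest of them, stood at 7.37 ± 1.71 CPM in saline mice (SD, n = 5) and 7.62 ± 1.68 in ethanol mice (SD, n = 4). Cxcl17 had the smallest p of the 8, with 0.958 ± 0.421 and 1.86 ± 0.556 CPM and a log2 change of 0.93 ± 0.40 (SE, unadjusted p = 0.0389, adjusted p = 0.963 by edgeR's quasi-likelihood test).

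Genes that control the transcription and decay of chemokine messages also held no call for ethanol by edgeR's quasi-likelihood test. Of 20 regulators of the NF-kB and interferon regulatory factor families, 11 were above 0 and 9 below, with a median log2 change of 0.0079, and Irf8, a factor macrophages depend on, was at 594 ± 48.6 CPM (SD, n = 5) and 598 ± 51.8 CPM (SD, n = 4). Nfkbiz, a nuclear NF-kB cofactor, had the smallest p of them, with a log2 change of -0.30 ± 0.15 (SE). Of 12 genes of message decay and feedback, 6 were above 0 and 6 below, the most abundant being the decay factor Zfp36l2 (-0.10 ± 0.29, SE, log2). Socs3, which restrains cytokine signalling, had the smallest p of them, at -0.44 ± 0.13 (SE, log2, unadjusted p = 0.00705, adjusted p = 0.963).

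Interferon-response genes, the class to which Cxcl10 belongs, stood above 0 for ethanol in 11 of 14 tested and below in 3, with a median log2 change of 0.16, while Cxcl10 itself was below 0. Ifit1, an interferon-induced antiviral gene, had the smallest p of them, at 0.62 ± 0.27 (SE, log2, unadjusted p = 0.0395, adjusted p = 0.963 by edgeR's quasi-likelihood test), and the factor Irf9 was at 0.18 ± 0.12. In ethanol 2, where Cxcl10 was lowest, the median of these 14 genes was 0.42 above their own means, and in saline 2, where Cxcl10 was highest, -0.18. Of 7 tested inflammatory cytokine genes of 12 listed, 1 was above 0 and 6 below, with a median of -0.33, but none was called. Il6 was at -0.52 ± 0.19 (SE, log2, unadjusted p = 0.0193, adjusted p = 0.963) and the adhesion molecule Icam1 at 0.13 ± 0.09. Of 23 immediate early genes 10 were above 0 and 13 below, with a median of -0.11, Rhob at -0.25 ± 0.27 and Egr3 at -1.65 ± 0.67 (SE, log2, unadjusted p = 0.0285, adjusted p = 0.963).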

How the data were processed

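Microglia (live CD11b+ CD45 low cells) of 5 saline and 4 ethanol mice were sequenced, 1 library per mouse. The authors deposited raw counts per gene symbol. Per the submitters' processing notes, the tools were HTSeq 0.6.1, STAR 2.4.2a and Trimmomatic 0.32, with build GRCm38.p4. No source used here gives the annotation release or the use of strand. Of the table's columns 0 were left without a sample.

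Genes were kept by filterByExpr (minimum count 10, minimum total 15), library sizes were TMM-scaled (trimmed mean of M values), and levels are CPM on that scale. Fold changes were tested with edgeR's quasi-likelihood F test (edgeR 4.0.16, R 4.3.3, robust dispersions) with Benjamini-Hochberg adjustment over 13067 genes and a threshold of 0.05. SE and 95% intervals came from the fit's information matrix and moderated dispersions. The fits ran on ethanol alone, on age cohort with ethanol as a covariate, and on their interaction, and the code was tested on simulated data. Correlations used log2(CPM + 1) and exact pairings (Python 3.11.15, scipy 1.17.1), and marker sums were compared over all 126 splits of the mice. Exon lengths and coordinates came by symbol from GENCODE M21 on GRCm38, and promoters from RefSeq on GRCm38.p6.

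The members and lists were chosen with earlier results of these data known. Beside the 10 ligands, the genes named are Ccr1, Ccr2, Cxcr3, Cxcr6 and Adam10, the highest and the smallest-p gene of each functional list, the highest of each marker list, and the 3 genes nearest in profile to each of the 3 tested ligands of largest SD. A few genes of these lists are not reported here. Marker genes at 0 counts, Trbc2 and the overlapping genes Art3 and Zmynd15 were named after their values were seen.

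Alternatives were DESeq2 1.42.0, limma-voom (limma 3.58.1), relative log expression size factors (RLE), no count filter, a CPM of at least 5 in 4 libraries, leaving out each library, age, library-name suffix or replicate number as a term, each cohort alone, no ethanol term, plain library totals and the longest transcript's length. Leaving out saline 1 and ethanol 2 together was added after the data were seen.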

Additional observations from a re-analysis of the deposited data

Results flagged for a closer look

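Of the 20 groups of values (10 ligands in 2 treatments), 2 held a mouse far from the others of its group, where chance alone gives about 1 in 20. Ccl3 in ethanol 2 stood at 44.4 CPM, with its gap to the next ethanol mouse taking up 0.851 of the group's range (critical value 0.829 for 4 mice). Ccl5 in ethanol 3 stood at 0.802 CPM, from 14 counts, with a gap of 0.846 of the range.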

How the results depend on the processing

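Over all alternatives no ligand was called, in 178 fits for ethanol (adjusted p 0.793 to 0.9997), 135 for age (0.0690 to 1.0) and 99 for the interaction (0.0547 to 0.9999), while the sign of the log2 change turned in 29, 19 and 11 of them. The cause was not tested. For ethanol the turned values were 0.041 for Ccl3 with the library-name suffix as a covariate, -0.0057 for Ccl4 and -0.040 for Ccl12 with limma-voom, and -0.061 for Ccl4 with age as a covariate. In older mice alone they were 0.28 for Ccl3, -0.0096 for Ccl6, 0.16 for Ccl7, -0.14 for Ccl12, 0.11 for Cxcl16, -0.19 for Ccr2 and -0.096 for Irf8, and in younger mice alone -0.27 for Ccl4 and 0.12 for Zfp36l2. Without saline 1 and ethanol 2 they were -0.28 for Ccl4, 0.0068 for Adam10 and 0.13 for Zfp36l2. The replicate numbers did not pair the mice (correlations of same-numbered deviations -0.165 to 0.0158 over 8480 genes). With the replicate block 0 genes were called for ethanol (240 at an unadjusted p under 0.05, against 386 without it), and the ethanol change was -0.018 for Ccl6, -0.030 for Ccl12 and -0.0069 for Irf8. With the block and the ethanol term the age difference was -0.18 for Ccl6, -0.00019 for Ccl7 and -0.033 for Ccl9. For age, Ccl7 was -0.00012 with RLE size factors and -0.15 with no ethanol term, and without saline 1 and ethanol 2 the difference was -0.37 for Ccl2, -0.29 for Ccl3, -0.15 for Ccl4, -0.016 for Ccl6, -0.70 for Ccl7 and -0.015 for Ccl9, and the interaction -0.31 for Ccl2 and -0.10 for Ccl3.

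Leaving out each library gave ethanol changes from -0.71 to 0.20 for Ccl3, -0.44 to 0.20 for Ccl4, -0.019 to 0.11 for Ccl6, -0.32 to 0.18 for Ccl12, -0.11 to 0.065 for Cxcl16, -0.091 to 0.70 for Ccr2, -1.75 to 0.092 for Cxcr6, -0.12 to 0.20 for Ccl24, -0.048 to 0.057 for Irf8 and -0.29 to 0.17 for Zfp36l2. Age differences ran from -0.015 to 0.54 for Ccl2, -0.058 to 0.076 for Ccl6 and -0.34 to 0.40 for Ccl7. Interaction terms ran from -0.77 to 0.86 for Ccl2, -0.53 to 1.52 for Ccl3, -0.43 to 1.01 for Ccl4, -0.25 to 0.019 for Ccl6, -0.20 to 0.0068 for Ccl9 and -0.81 to 0.45 for Ccl12. Ethanol minus saline sums ran from -0.887 to 2.83 CPM for monocyte and neutrophil markers and from -18.3 to 58.1 CPM for neuron markers. Counts of called genes moved for age to 97 with no count filter and 3 without saline 1 and ethanol 2, and for the interaction to 1 with DESeq2 and to between 0 and 848 when each library was left out. The 848 came without ethanol 1, which leaves ethanol 2 as the only older ethanol mouse, assumed to vary like the others, and Ccl3 then stood at 1.52 (adjusted p = 0.0547 by edgeR's quasi-likelihood test). Between 1 and 3 pairs of ligands passed when each library was left out. With the longest transcript's length, Ccl6 stood at 118 and Cxcl16 at 21.0 CPM per kilobase. Depth limited Ccl5 and Ccl7, and the interval of Cxcl10 allows changes from 0.225 to 1.49 times.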
